A study of Mus musculus with 16 samples.

Results

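The transcripts of 4 epithelial genes, Inadl, Ppl, Cdh1 and Epcam, were followed through maps of acetylated RNA from mouse liver. They were taken as all peaks whose deposited gene name equals one of these 4 symbols, and they are 4 of the 8602 genes with a peak. The genes were chosen by the deposited lists in which their peaks occurred, that is, by peak presence in db/db and lean mice, so their pattern between groups is given as a description and is not tested. Acetylated RNA carries N4-acetylcytidine (ac4C), a modified cytidine written by the enzyme NAT10, and an antibody against it pulls the marked fragments down for sequencing. The livers came from male mice of 2 groups. The first is labelled db/db, a strain that lacks a working leptin receptor and becomes obese and diabetic, and the second is the lean control group, labelled C57BL/6. No age, agent or transgene was given in the labels, and the background strain of the db/db mice was not stated there. Each group has 4 immunoprecipitates, 4 inputs and 4 deposited peak lists, named db1, db2, db4 and db5 for db/db mice and C5 to C8 for lean mice.

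Epithelial cells are held together by junctions and keep a distinct apical and basal side. Tight junctions seal the gap between neighbouring cells, adherens junctions link their actin skeletons through cadherins and catenins, and desmosomes link their keratin filaments. In liver these structures border the bile canaliculi between hepatocytes and join the cholangiocytes that line bile ducts. Inadl, now named Patj, encodes a scaffold with many PDZ domains that belongs to the Crumbs polarity complex and binds tight junction proteins. Ppl encodes periplakin, a plakin that ties keratin filaments to desmosomes and the cell membrane. Cdh1 encodes E-cadherin, the adhesion receptor of epithelial adherens junctions, which in mouse liver is found mainly around the portal tracts and on bile ducts. Epcam encodes an adhesion protein that in adult liver marks cholangiocytes and progenitor cells.

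Inadl is a long gene with several annotated starts, and a site that lies before a start cannot be part of a transcript that begins there. The RefSeq promoter windows used here give 3 starts for it on the plus strand of chromosome 4 (GRCm38.p6), at 98395826, 98411027 and 98546634. The annotated gene begins at 98395560, before start 1, so these 3 may not be all of its starts. Each is shown from 150 bases before the start to 30 bases after it, with the 30 transcribed bases in capitals, because the acetylated sites are read against these positions. Start 1 covers chr4:98395676-98395855, start 2 covers chr4:98410877-98411056 and start 3 covers chr4:98546484-98546663.
Patj start 1: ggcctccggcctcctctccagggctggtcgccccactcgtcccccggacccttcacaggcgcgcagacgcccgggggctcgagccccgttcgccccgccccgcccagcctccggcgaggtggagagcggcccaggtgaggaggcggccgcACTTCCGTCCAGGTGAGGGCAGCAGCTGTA
Patj start 2: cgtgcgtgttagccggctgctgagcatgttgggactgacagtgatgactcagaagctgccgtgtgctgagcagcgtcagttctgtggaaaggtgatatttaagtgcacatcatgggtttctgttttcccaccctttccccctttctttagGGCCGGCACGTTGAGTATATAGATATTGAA
Patj start 3: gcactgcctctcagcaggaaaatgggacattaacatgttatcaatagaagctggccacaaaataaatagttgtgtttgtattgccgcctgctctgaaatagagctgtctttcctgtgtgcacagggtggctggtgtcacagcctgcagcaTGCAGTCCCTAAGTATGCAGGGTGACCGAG
G and C made up 76.1% of the first stretch and 48.9% of the third, and the second lay between them. No Inadl peak overlapped the RefSeq promoter window around any of the 3 starts. Of the 8 Inadl sites, 5 lay before start 3 and 3 lay after it, and the 4 sites called in more than 1 list were all before it. The nearest site after start 2 was 1.98 kb away and the nearest after start 3 was 121.0 kb away. The lists give no exon, intron or UTR for a peak.

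Each deposited peak has a fold, the linear ratio of immunoprecipitate to background, and a score, which is -10 times the decimal logarithm of the caller's p-value. The 8 lists held 68356 peaks, from 8212 to 9754 in db/db and from 7583 to 8503 in lean mice (9028 ± 651 and 8061 ± 376, SD, n = 4 each, exact two-sided permutation p = 0.0571, smallest possible 0.0286). The lowest score in the 8 lists was 13.02 and the lowest fold 2.0. All 48 peaks of Inadl, Ppl, Cdh1 and Epcam carried the caller's false discovery rate of 100%, as did 99.21% of all peaks. Sequencing depth is unknown, so absence of a peak means only that the caller reported none. In whole liver, fewer cells of a type and less RNA per cell cannot be told apart, and the RNA level of these genes was not used here.

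Inadl had peaks in all 4 db/db lists and in no lean list, which is the pattern its choice rests on and which 0.942% of the 8602 genes share. It had 2 peaks in db1, 5 in db2, 6 in db4 and 2 in db5. Its gene spans 98395560 to 98719603 on chromosome 4 (mm10), and the 15 peaks merged into 8 sites when peaks sharing at least 1 bp were joined. Site 4, a stretch of 210 bp at chr4:98491538-98491747, 96.0 kb from the lower end of the gene, was the only Inadl site called in all 4 db/db lists. Its fold was 7.15 in db1, 5.16 in db2, 12.33 in db4 and 3.25 in db5. Its score was 65.63 in db1, 58.02 in db2, 217.42 in db4 and 15.87 in db5. The values stood at the 89.4th, 71.4th, 97.7th and 26.5th percentiles of fold in those lists, so db5 held the weakest and db4 the strongest call. Over all merged regions, 0.853% of 25437 were called in all 4 db/db and no lean list.

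Site 5 of Inadl was the next one along, at chr4:98496874-98497435, and was called in db1, db2 and db4. Its fold was 4.35 in db1, 3.05 in db2 and 3.79 in db4. All 3 calls began at the same base and ended at different ones, giving widths of 470, 562 and 514 bp. Sites 1 and 2, at chr4:98413004-98413199 and chr4:98416596-98416759, were called in db2 and db4 at folds of 2.55 to 2.92. The other 4 sites were each called in a single list. Site 3 was called in db4 at a fold of 2.48, site 6 in db2 at 2.13, site 7 in db4 at 3.1 and site 8 in db5 at 3.62. Sites 6 to 8 lay in the last part of the gene, between 84.0% and 90.1% of its length, whereas sites 1 to 5 lay between 5.41% and 31.4%.

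Ppl also had peaks in all 4 db/db lists and in no lean list. It had 1 peak in db1, 9 in db2, 6 in db4 and 6 in db5, so db1 held the fewest. For scale, 5.6% of all pairs of a gene and a list with a peak had 5 peaks or more. The gene spans 5086291 to 5132481 on chromosome 16 (mm10), and the 22 peaks fell on 11 sites. No Ppl site was called in all 4 db/db lists. Sites 1, 3, 7 and 11 were called in 3 db/db lists each, and 3.36% of all merged regions were called in at least 3 db/db lists and no lean list.

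The widest Ppl site, site 1 at chr16:5086291-5089828, reached the lower annotated end of the gene. Its peak was 2800 bp wide in db2, 3538 bp in db4 and 3480 bp in db5, and it was missing in db1. Only 24, 11 and 8 peaks of those lists, this one included, were at least as wide. Its fold was 3.27 in db2, 4.1 in db4 and 5.2 in db5, and its score was 97.93, 25.71 and 43.11. Site 11, 200 bp wide at chr16:5132282-5132481, ended at the opposite annotated end of the gene. It had the highest Ppl folds, 4.78 in db2, 6.21 in db4 and 7.23 in db5, and none in db1. The single Ppl peak of db1 was at site 7, chr16:5101374-5101525, with a fold of 4.18. The same site had folds of 3.19 in db2 and 3.31 in db5 and was not called in db4. Site 3, at chr16:5092365-5092481, had folds of 4.3 in db2, 3.73 in db4 and 4.69 in db5. The remaining 7 Ppl sites were called in 1 or 2 lists at folds of 2.66 to 4.25.

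Cdh1 had the opposite pattern, with peaks in all 4 lean lists and no db/db list, which 0.674% of the 8602 genes share. It had 1 peak in C5, 2 in C6, 2 in C7 and 4 in C8. The gene spans 106603350 to 106670247 on chromosome 8 (mm10), and the 9 peaks fell on 4 sites, all between 68.4% and 92.8% of its length. No Cdh1 site was called in all 4 lean lists. Sites 1 and 2 were called in 3 lean lists each, and 2.37% of all merged regions were called in no db/db list and at least 3 lean lists. Site 1, 224 bp at chr8:106649001-106649224, had folds of 5.6 in C6, 4.13 in C7 and 3.76 in C8 and was not called in C5. Site 2, 245 bp at chr8:106660796-106661040, had folds of 3.39 in C5, 3.83 in C7 and 4.35 in C8 and was not called in C6. C5 therefore had Cdh1 through site 2 alone, and C6 lacked that site. Site 3, chr8:106661885-106662030, was called in C6 and C8 at folds of 3.25 and 2.9, and site 4, chr8:106665394-106665524, in C8 at 3.41. The best score of Cdh1 was 38.81 in C5, 48.89 in C6, 32.0 in C7 and 34.19 in C8. These best scores lay between the 51.3rd and the 64.2nd percentile of their lists, but other calls were weaker, down to the 24.9th percentile of score at site 1 in C8 and the 11.4th percentile of fold at site 3 in C8.

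Epcam had 1 peak in db1 and 1 in db4, and none in the other 6 lists. Exactly 2 db/db lists and no lean list was the pattern of 4.75% of all genes. Both peaks fell on 1 site at chr17:87640288-87640528 (mm10), 4.31 kb from the start of the gene, which spans 87635979 to 87651127. The fold was 2.73 in db1 and 2.48 in db4, at the 8.95th and 4.65th percentiles of those lists. The score was 14.26 in db1, close to the lowest in the lists, and 25.64 in db4. Both calls were among the weakest by fold in their lists.

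**Figure D1:**
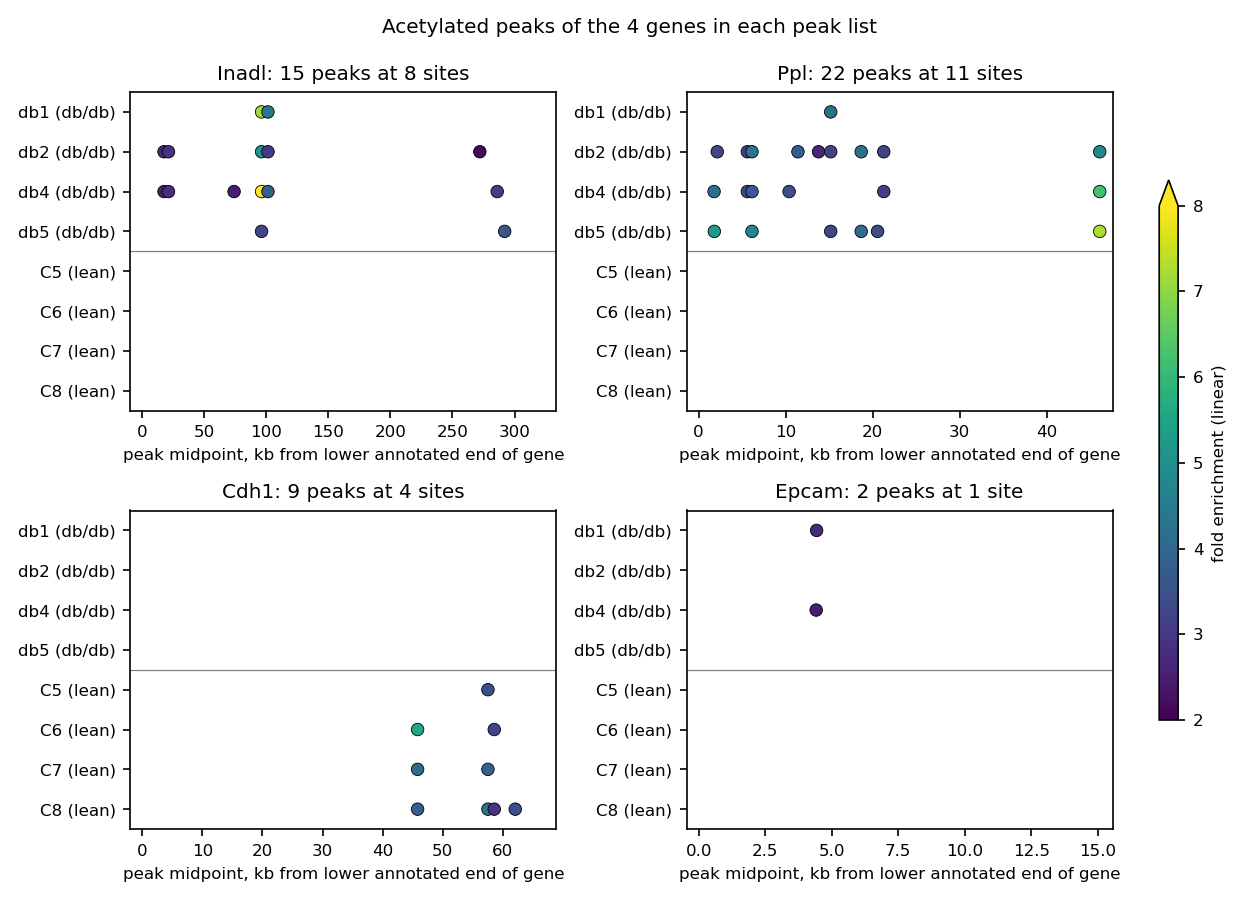
Each panel plots 1 gene, with the midpoint of every peak in kb from the lower annotated end of the gene on the horizontal axis and the 8 peak lists on the vertical axis. Colour gives the linear fold enrichment and stops at 8, so the db4 peak of Inadl at 12.33 has the top colour. Inadl and Ppl have points in the 4 db/db rows only, Cdh1 in the 4 lean rows only, and Epcam in db1 and db4.

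At the level of sites, the 4 genes were less uniform than at the level of genes. Their 48 peaks fell on 24 sites, of which 9 (37.5%) were called in 1 list, against 45.0% of all 25437 merged regions. Inadl reached its count of 4 db/db lists through a site shared by all 4, while Ppl and Cdh1 reached theirs through different sites in different lists. Among the 81 genes called in all 4 db/db and no lean list, 48 (59.3%) had a site shared by all 4 lists, as Inadl had. For 24 of the 81 the most widely shared site was in 3 lists, as for Ppl. Among the 58 genes with the lean pattern, 43 (74.1%) had a site shared by all 4 lists. For 13 others, Cdh1 among them, the most widely shared site was in 3 lists.

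Where several lists called the same site of these genes, they mostly gave it the same borders. Of the 15 sites called in more than 1 list, 12 had an identical start and end in every list that called them. Over all lists, 70.8% of 13981 such regions had identical borders and 94.9% shared at least 1 border. The 3 exceptions were site 5 of Inadl, site 1 of Ppl and the Epcam site.

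Pooled, the peaks of these genes reached high scores and folds less often than all peaks of the lists. The genes were chosen by the lists in which they had peaks, so this contrast is not independent of that choice. The same shares were not taken for other genes with the same pattern. By list, the best fold lay at the 38.8th to 97.7th percentile for Inadl and the 54.0th to 88.9th for Ppl. For Cdh1 it lay at the 31.1st to 75.7th and for Epcam at the 4.65th to 8.95th. A score of at least 50 was reached by 8 of the 48 peaks (16.7%), against 32.0% of all peaks. A fold of at least 4 was reached by 17 (35.4%), against 52.0% of all peaks. The lowest scores were 13.23 for Ppl site 6 in db2 and 13.43 for Inadl site 2 in db4, just above the lowest score in the lists. With the cutoff on score, Inadl was left in db1, db2 and db4, Ppl in db2, db4 and db5, and Cdh1 and Epcam in no list. With the cutoff on fold, Ppl was left in all 4 db/db lists, Inadl in 3 of them, Cdh1 in 3 lean lists and Epcam in none.

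**Figure D2:**
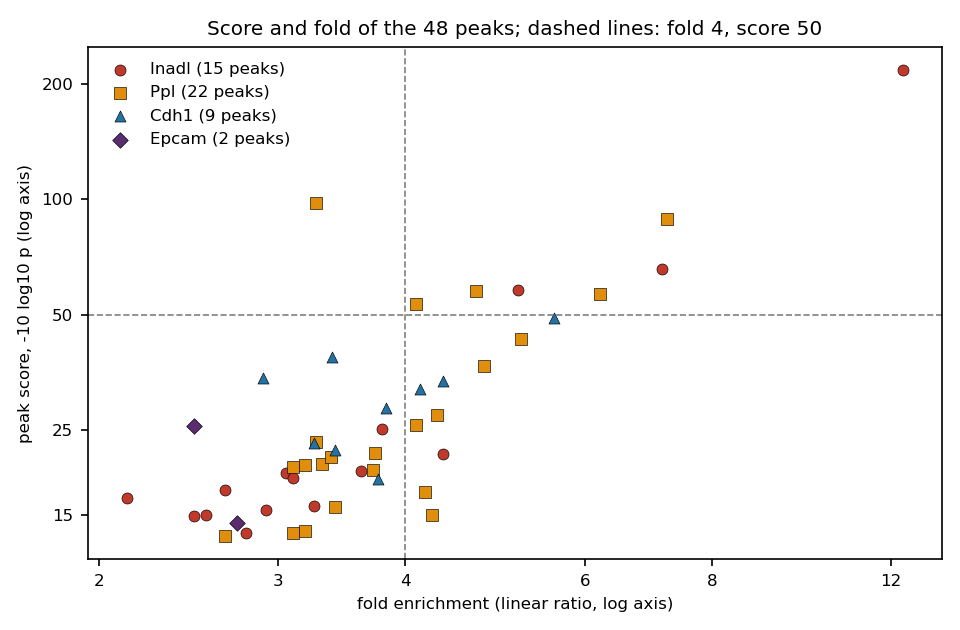
The plot sets the score of each of the 48 peaks (log axis) against its fold (log axis), with dashed lines at a fold of 4 and a score of 50. All Cdh1 and Epcam peaks lie below the score line, and the highest point is the db4 peak of Inadl with a score of 217.42.

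Genes with a pattern most like that of each gene were found from the best fold of every gene, expressed as a percentile within each list and set to 0 where there was no peak. The distance between 2 genes was the Euclidean distance over the 8 lists. Predicted genes, Rik clones and pseudogenes were left out when the nearest genes were named. For Inadl the nearest were Jade2 (27.2), which had a peak in 4 db/db and 1 lean list, Cgref1 (28.5) and Morc4 (32.4). For Ppl they were Hspa2 (20.5), Acpp (21.8) and Efcab2 (21.8). For Cdh1 they were Fam207a (21.5), Dip2b (24.8), which had a peak in 1 db/db and 4 lean lists, and Tbcel (24.9). For Epcam 51 genes were tied at the distance of the third nearest, so none is singled out.

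The wider set held 86 other junction and polarity genes in 6 lists by role, of which 64 had a peak in at least 1 list. A db/db list had 46 to 53 of them and a lean list also 46 to 53, with medians of 49.0 and 47.5. Over all 8602 genes with a peak the medians were 4615 and 4363. None of the 64 was called in every list of 1 group and none of the other, against 0.942% of all genes for the db/db and 0.674% for the lean direction. The 64 leave out Inadl, Ppl and Cdh1, which were chosen for this pattern, while the 8602 genes hold them. The counts of the 64 are thus partly set by that choice. Genes called in 3 or 4 db/db lists but no more than 1 lean list were 6 of the 64 (9.38%), against 7.16% of all genes. In the lean direction there were 0 of 64, against 5.03% of all genes. Fisher's exact test with Benjamini-Hochberg adjustment over all 8602 genes called 0 of the 8602 genes, and 139 (1.62%) had an unadjusted p under 0.05. The smallest p that 4 lists against 4 can give is 0.0286. A gene could pass the adjustment only if a large part of the 8602 genes reached that value. The count of 0 therefore does not show that the groups are alike.

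Of 20 tight junction genes, 14 had a peak and 8 of these had one in all 8 lists, while 19.8% of all genes with a peak did. Cldn1 and Cldn2, claudins, and F11r, a junctional adhesion molecule, were among those with no peak and are named after their values were seen. The 4 of those 8 with the highest mean fold percentile were Cgnl1, Magi3, Cgn and Amotl2. Cgnl1, paracingulin, a junction linker to the cytoskeleton, had best folds of 7.2 to 10.95 in db/db and 9.02 to 15.15 in lean lists. Cgn, its paralog cingulin, had 5.11 to 7.73 and 5.25 to 8.73. Jam2, a junctional adhesion molecule, was the only tight junction gene on the unequal side. It was called in db2, db4 and db5 at folds of 4.96, 3.73 and 2.89 and in no lean list, at 2 different sites. Cldn3, Cldn5 and Cldn12, claudins that form the seal itself, were each called in a single list, and these 3 are named after their values were seen.

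Among 20 polarity genes, 15 had a peak and 6 had one in all 8 lists. Dlg1 and Scrib, scaffolds of the basolateral side, Mpp5, the scaffold that joins Inadl protein to the Crumbs receptor, and Pard6b of the Par complex were the 4 with the highest mean fold percentile. Mpp5 had best folds of 7.15 in db1, 5.32 in db2, 5.9 in db4 and 4.58 in db5, and of 6.59, 7.43, 6.03 and 8.3 in C5 to C8. Mpp5 was thus called in the 4 lean lists in which Inadl was not. Mpdz, the close paralog of Inadl, is named outside the rule. It was called in db1 and db4 at 3.07 and 5.28 and in all 4 lean lists at 3.25 to 4.58, and so did not share the lists of Inadl.

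Of 14 adherens junction genes, 13 had a peak and 6 had one in all 8 lists. Mllt4, afadin, which links nectins to actin, had best folds of 14.14 to 19.47 in db/db and 9.64 to 19.07 in lean lists. Vcl (vinculin), Cdh2 (N-cadherin, the other cadherin of hepatocytes) and Pvrl3 (nectin 3) were the others named by the same measure. Cdh2 had best folds of 4.42 to 6.38 in db/db and 4.75 to 7.13 in lean lists, so this cadherin was called in the db/db lists where Cdh1 was not. The catenins of the E-cadherin complex are named outside the rule. Ctnna1 was called in all 8 lists at 2.69 to 3.8 in db/db and 3.52 to 4.86 in lean mice. Ctnnd1 and Jup were called in all lists but db1, and Ctnnb1 in none. The best folds of Ctnnd1 were 3.18 to 3.47 in db/db and 4.09 to 5.59 in lean lists. Those of Jup were 2.3 to 3.39 and 2.89 to 6.12.

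Of 12 desmosome, plakin and keratin genes, 10 had a peak and 6 had one in all 8 lists. The plakins Dst, Macf1 and Plec and the desmosome plakin Dsp were the 4 with the highest mean fold percentile. Dst, with 7 to 24 peaks a list, had best folds of 9.03 to 12.3 in db/db and 7.15 to 9.64 in lean lists. Evpl, envoplakin, the partner of periplakin, had no peak and is named outside the rule. Dsc2, a desmosomal cadherin, and Krt18, a keratin of simple epithelia, were called in 3 db/db lists and 1 lean list each. Krt18 had best folds of 6.91 in db1, 4.67 in db4, 4.5 in db5 and 4.76 in C7. The 5 Dsc2 sites were each called in a single list.

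The list of Epcam partners and proteases had 12 genes, of which 7 had a peak. Of these, 3 were called in 3 or 4 db/db lists but no more than 1 lean list, against 7.16% of all genes. They are 3 of the 6 unequal genes, and a share of so few genes was not tested. Of the 7, 4 were called in more db/db than lean lists, 2 in equal numbers and 1 in more lean lists. The last was Adam10, a protease named outside the rule, called in 2 db/db and 4 lean lists. Psen2, a catalytic subunit of gamma-secretase, was called in all 4 db/db lists at best folds of 3.75, 3.72, 4.63 and 3.81 and in C6 at 3.48. Cd44, a hyaluronan receptor, was called in db1, db2 and db4 at 3.86, 3.44 and 5.68 and in C7 at 4.58. Spint2, a protease inhibitor, was called in db2, db4 and db5 at 4.24, 4.15 and 6.75 and in C6 at 3.05. Of 8 repressors of Cdh1 transcription, 5 had a peak, and Zeb2 and Snai2 had one in all 8 lists. Zeb2 had best folds of 4.66 to 7.83 in db/db and 3.84 to 7.6 in lean lists, and Snai2 of 2.48 to 4.82 and 2.95 to 6.97.

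**Figure D3:**
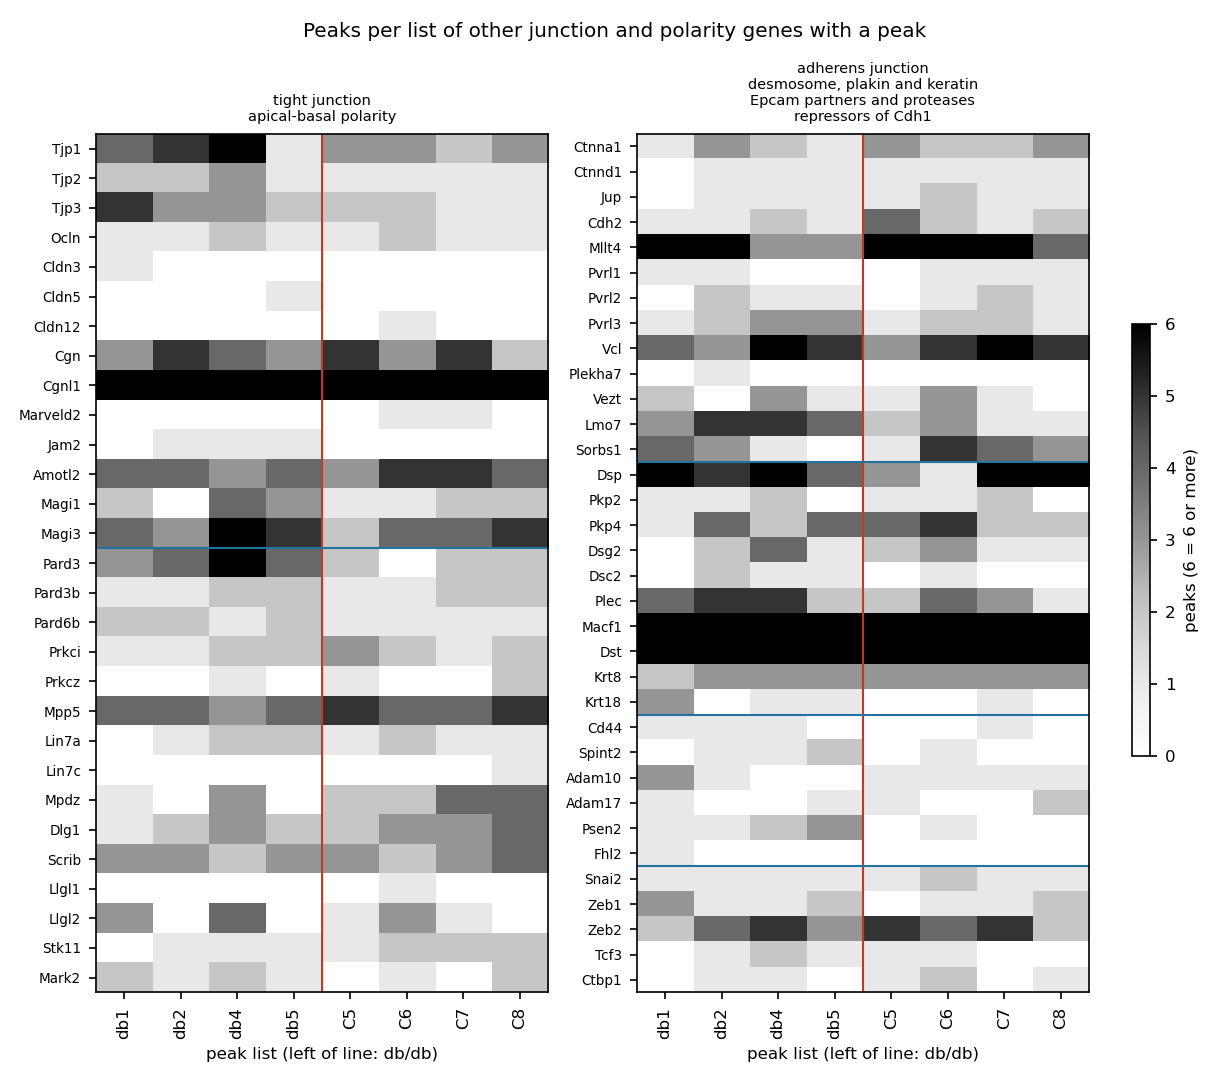
Each row is 1 of the 64 other junction and polarity genes with a peak, each column a peak list, with 1 of the genes not shown, and the shade gives the number of peaks, with 6 standing for 6 or more. Blue lines part the role lists named above each panel, and the red line parts db/db from lean lists. Most rows are shaded on both sides of the red line, and Jam2 is shaded on the db/db side only, in db2, db4 and db5.

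Site by site, the 64 genes, which leave out Inadl, Ppl, Cdh1 and Epcam, had 390 sites. Of these, 3 (0.769%) were called in all 4 db/db and no lean list, against 0.853% of all regions, and 1 (0.256%) in no db/db and all 4 lean lists, against 0.708%. These 4 are named after their values were seen. In Dsp the site lay at chr13:38177187-38177282 with folds of 3.04 to 4.18, and in Dst at chr1:34274168-34274338 with folds of 4.77 to 6.88, although both genes had other peaks in all 8 lists. In Psen2 it lay at chr1:180256223-180256300 with folds of 3.13 to 3.75. The lean site was in Stk11, the polarity kinase LKB1, at chr10:80115803-80116907 with folds of 2.61 to 3.81.

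Markers of the cell types that carry Cdh1 and Epcam were counted because the liver samples hold several types. Cholangiocyte markers other than Cdh1 and Epcam had a peak for 5 of 10, with 4, 2, 3 and 3 in the db/db lists and 2, 1, 2 and 1 in C5 to C8. Krt7, Cftr, Cldn4, Prom1 and Bicc1 had no peak in any list, and Krt19 had one in db4 alone. The 2 ranges met at 2 markers. The part of this in the patterns of Cdh1 and Epcam was not tested. Periportal hepatocyte markers had a peak for 4 of 10, with 0 to 3 in a db/db and 0 to 1 in a lean list, and db1, C5 and C8 had none. Pericentral markers had a peak for 7 of 10, with 2 to 4 in db/db and 2 to 5 in lean lists. None of 6 mesothelial markers had a peak. Of the hepatocyte genes Alb, Apoa1, Ttr and Hnf4a, only Hnf4a had a peak, in db1, db2, db5 and C8. Alb, Apoa1 and Ttr, which are abundant transcripts of liver, had none in any list, so peaks alone do not check the tissue label.

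**Figure D4:**
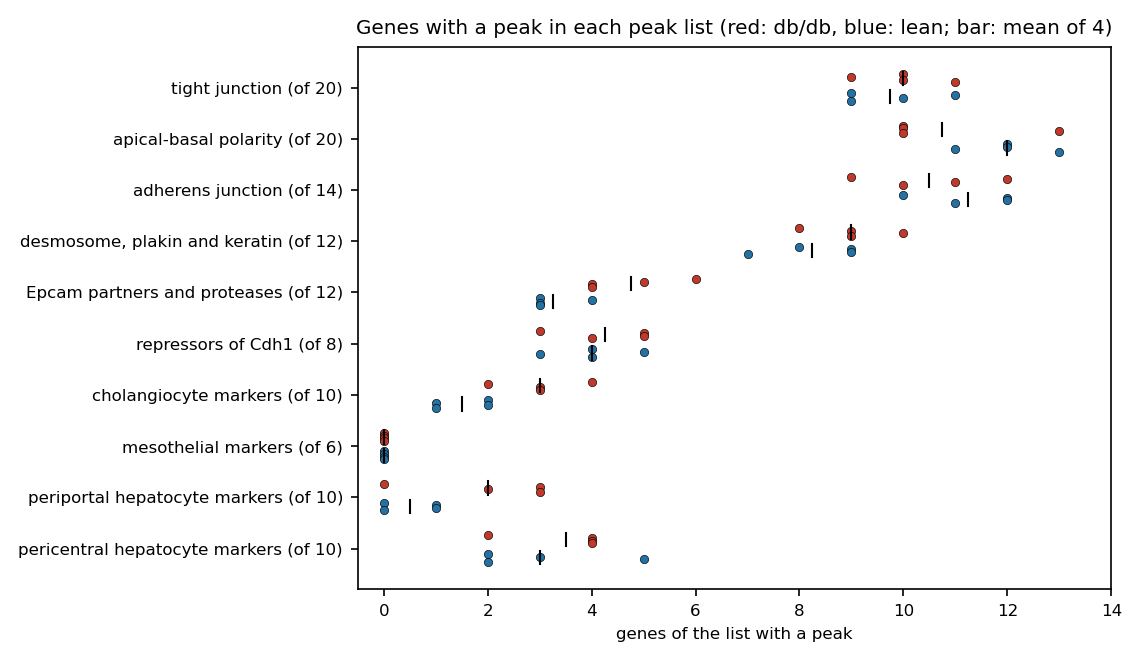
Each point is 1 peak list, red for db/db and blue for lean, placed by the number of genes of the named list that had a peak in it; black bars are means of 4 lists. The 2 groups share at least 1 value in every list. They share a single value for polarity genes (13), Epcam partners (4), cholangiocyte markers (2), periportal markers (0) and pericentral markers (2). Mesothelial markers are at 0 in every list.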

How the data were processed

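RNA of 16 liver samples was depleted of ribosomal RNA, broken into fragments, and sequenced as immunoprecipitate or input, per the labels' protocols. The submitters' processing notes name cutadapt 1.9.3, HISAT2 2.0.4 and the build mm10. The deposited files are 8 peak lists whose peak names read MACS; its version, its control and any pooling are not given in the sources used here. The score of a peak deposited by the authors is -10 times the log10 of its p-value. The fold deposited by the authors is the linear ratio described above, and the false discovery rate is deposited in percent. Score and fold belong to a peak as the authors gave them, and were used to describe, rank or filter within 1 list. Lists db1, db2, db4 and db5 were mapped to the db/db group and C5 to C8, C being taken for control, to the lean group. None was tied to a numbered sample, since the titles hold no db5 and no C5 to C8. The labels do not say that the samples of a group are separate animals, so the spread behind the p-values may be technical.

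Starts in the lists count from 0 and are printed 1 higher. Peaks were merged over all lists where they shared at least 1 bp, without strand, which the lists do not give. Presence of a gene or region was compared between 4 and 4 lists by Fisher's exact test, adjusted after Benjamini and Hochberg over all genes or regions, and peaks per list by exact permutation over 70 arrangements (Python 3.11.15, pandas 2.3.3, scipy 1.17.1). The merging was checked on made-up intervals with known answers. The presence calls were run on simulated data with planted patterns, which they recover by construction, so that run checks only the code. Other genes named came from 6 role lists by a rule: called in 3 or 4 lists of 1 group but no more than 1 of the other, or up to 4 genes a list with a peak in all 8 and the highest fold percentile; exceptions are stated, and 1 gene that the rule names is not reported here. For each of Inadl, Ppl, Cdh1 and Epcam the rule also named the 3 genes closest in pattern. These 4 genes, the lists and the rules were chosen with earlier results of these data known. Gene bounds and start sequences are from RefSeq, assembly GRCm38.p6; start sequences matched Inadl and Epcam. The sequences of the sites were not used here. Alternatives were a score of at least 50, a fold of at least 4, 7583 peaks from each list, gene assignment by RefSeq bounds, other merging distances and leaving out each list.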

Additional observations from a re-analysis of the deposited data

Results flagged for a closer look

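Among 44 groups of 4 values checked, 5 held a list that stood apart from the other 3. All 5 are small whole numbers with 3 tied values, where any differing value is flagged however small the gap. The usual rate of 1 in 20 groups does not apply to such counts, so 5 cannot be set against chance. In db4, 13 polarity genes had a peak, against 10 in each other db/db list. Of all lists, db4 also had the most genes with a peak (5046). C8 had the fewest (4071), and 13 polarity genes as well. In db1, 2 pericentral markers had a peak, against 4 in each of the other db/db lists. In C6, 4 genes that act on Epcam had a peak, against 3 in each of the other lean lists. Of the 4 defining hepatocyte genes, db4 had 0 with a peak against 1 in each other db/db list, and C8 had 1 against 0 in each other lean list. The study has 1 contrast, so effects were not compared between groups.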

How the results depend on the processing

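At a score of at least 50 the share of db/db lists minus that of lean lists with a peak went from 100 to 75 percentage points for Inadl and Ppl, from -100 to 0 for Cdh1 and from 50 to 0 for Epcam. With folds under 4 left out it was 75 for Inadl, -75 for Cdh1 and 0 for Epcam. With the same number of peaks from each list it was 25 for Epcam. It changed sign for none of the 4 genes under the alternatives run. Each gene had peaks in 1 group only, so settings that only remove peaks or lists could not reverse the sign. Gene assignment by RefSeq bounds, which can add peaks, left all 4 differences as in the full lists. Numbers of group-specific genes were 81 db/db and 58 lean, in all 139; at a score of at least 50 they were 28 and 34, in all 62, and with the same number of peaks from each list 58 and 70. Of 397 group-specific regions (217 and 180), 115 (55 and 60) were left at that score and 192 (108 and 84) with folds under 4 left out, and with equal numbers of peaks the split was 155 and 182. With equal numbers of peaks the lean counts were thus higher than in the full lists and the db/db counts lower; the cause was not tested. Leaving out each list in turn gave 100 to 100 percentage points for Inadl and Ppl, -100 to -100 for Cdh1, and 33.33 to 66.67 for Epcam. For Inadl, Ppl and Cdh1 this was fixed in advance. They were chosen for peaks in every list of 1 group and none of the other, so leaving out a list cannot change the value. Leaving out a list gave 180 to 235 group-specific genes and 532 to 689 regions, since 3 lists are easier to fill than 4. The difference in peaks per list was 724.4 to 1238, and without db5 it passed (exact permutation p = 0.0286). The mean number of the 86 junction genes with a peak, db/db minus lean, was 0.75, and -0.5 to 2.25 when lists were left out, within the spread between lists. No paired analysis was possible because the lean lists, C5 to C8, and db5 carry no replicate number found in the titles, so no number is shared between the groups' lists. With depth unknown, a missing peak cannot be given a limit.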

Other observations

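All 4 genes carry the cellular component cell junction in the deposited annotation, and so do 301 of the genes with a peak. Inadl, Ppl and Cdh1 were chosen for their presence pattern, so counts that hold them are partly set by that choice. Beside them, the genes of the 301 called in every list of 1 group and none of the other were Pxn, the focal adhesion scaffold paxillin, in the db/db direction and Kcna2, a potassium channel subunit, in the lean direction. Beside Inadl, none of the 67 genes annotated with the Tight junction pathway had such a pattern. Beside Cdh1, those of the 51 genes of the Adherens junction pathway were Nlk, a kinase, in the db/db direction, and Insr, the insulin receptor, in the lean direction. Over all 8602 genes, 1.62% had such a pattern in either direction. These genes are named after their values were seen.

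Many peaks of a list share exactly the same score, and 3 of the 48 peaks sat on the most frequent score of their list. The Epcam peak of db1 had a score of 14.26, as had 232 peaks of that list. Site 10 of Ppl in db2 had 13.61, as had 139 peaks, and site 3 of Inadl in db4 had 14.94, as had 196 peaks. The strongest Inadl call, site 4 in db4, had a score that no other peak of the list shared.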
